A study of Mus musculus with 6 samples.

Results

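The endothelial cells of brain vessels and the barrier they form were followed through 10 genes in the irradiated cortex of mice with and without *Lgmn*, the gene of asparagine endopeptidase. The 10 genes were taken by name: *Cldn5*, *Ocln*, *Tjp1*, *Pecam1*, *Cdh5*, *Slc2a1*, *Mfsd2a*, *Abcb1a*, *Vwf* and *Flt1*. All 10 were found among the 51826 genes of the count table, and all 10 were among the 18345 genes that passed the filter on low counts. Bulk RNA sequencing had been done on the cortex of 3 Lgmn+/+ and 3 Lgmn−/− mice, here called Lgmn+/+-IR and Lgmn−/−-IR. All 6 were male BALB/c mice of 6 to 8 weeks that had received a single X-ray dose of 10 Gy to the whole brain, and the cortex was collected on day 3. The knockout mice carried floxed *Lgmn* alleles together with Cre and came from 1 positive embryonic stem cell clone, and neither the driver of Cre nor the strain of the stem cells is given in the sources used here. Cortex that had not been irradiated was not analysed here, so every difference is one between the genotypes after irradiation.

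Brain endothelial cells differ from those of most other organs in that tight junctions seal the gaps between them and few vesicles cross them. Nutrients therefore enter through dedicated transporters, and many foreign compounds are pumped back into the blood by efflux pumps. Pericytes, the endfeet of astrocytes and Wnt ligands from neural cells help to keep this barrier state, and ionising radiation is known to injure the vessels of the brain.

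Total counts per library ranged from 41874462 to 46829441. *Lgmn* itself, the check of the genotype, gave 130.3, 129 and 127 CPM (counts relative to the library size, which was scaled by TMM factors) in the Lgmn+/+-IR libraries and 83.4, 70.4 and 93.6 CPM in the Lgmn−/−-IR libraries. The groups did not overlap and the log2 fold change was -0.64 (SE 0.12, adjusted p = 0.0315, edgeR quasi-likelihood test with Benjamini-Hochberg adjustment over all genes tested), so *Lgmn* reads remained in every Lgmn−/−-IR library. Counts per gene do not show which exons these reads came from, so they check the labels but not the deletion. That adjusted p was 0.103, 0.131, 0.104 and 0.0949 without Lgmn+/+-IR library 1, 2 or 3 or Lgmn−/−-IR library 1. Blood markers also differed. All 5 tested haemoglobin and erythroid genes of 8 listed (*Hba-a1*, *Hba-a2*, *Hbb-bs*, *Hbb-bt* and *Alas2*) were higher in Lgmn−/−-IR, and their summed level was 7.59 to 15.8 CPM in Lgmn+/+-IR against 2273, 1728 and 234 CPM in the Lgmn−/−-IR libraries. The globin genes have near-identical copies, so their reads cannot be assigned to single copies with certainty. Leaving out Lgmn+/+-IR library 1, 2 or 3 took 3, 5 and 4 of the 5 past an adjusted p of 0.05 (at most 0.110, edgeR), and leaving out Lgmn−/−-IR library 2 took *Alas2* past it (0.0586). Of the oligodendrocyte markers, 5 of 6 were lower in Lgmn−/−-IR with an adjusted p under 0.05, and 1 of 6 (*Mobp*) without Lgmn+/+-IR library 1 or 2 or Lgmn−/−-IR library 3.

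No difference between the genotypes passed the test for any of the 10 genes. With edgeR, 0 of 10 reached an adjusted p under 0.05 with a log2 fold change beyond 1 in either direction, where 2.06% of all genes tested did, and 0 of 10 reached an adjusted p under 0.05 at any fold, where 3.33% did. DESeq2 also gave 0 of 10. At an unadjusted p under 0.05, edgeR gave 1 of 10 (*Vwf*), against 18.6% of all genes tested, and DESeq2 gave 3 of 10. The 18.6% belongs to the edgeR fit, and the share in the other fits is not given here. An unadjusted p under 0.05 was found for 0 of 10 with limma on FPKM (all 3 pseudocounts), with a replicate block, without Lgmn+/+-IR library 1 and without Lgmn−/−-IR library 1. The libraries of both genotypes overlapped in CPM for every one of the 10, whereas they did not overlap for 25.7% of all genes tested. The fitted log2 fold changes lay between -0.07 and 0.62, with 8 above 0 and 2 below, and their median was 0.32 beside -0.01 over all genes tested. Leaving out 1 library moved this median to between 0.18 (without Lgmn−/−-IR library 3) and 0.46 (without Lgmn−/−-IR library 2). Without the latter library, 5 of the 10 (*Cldn5*, *Tjp1*, *Pecam1*, *Cdh5* and *Flt1*) had an unadjusted p under 0.05, and 0 of 10 an adjusted p under 0.05. The share of all genes with an unadjusted p under 0.05 in that fit is not given here, so the 5 of 10 has no background beside it. Bulk RNA cannot tell fewer endothelial cells from less of a transcript per cell.

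**Figure D1:**
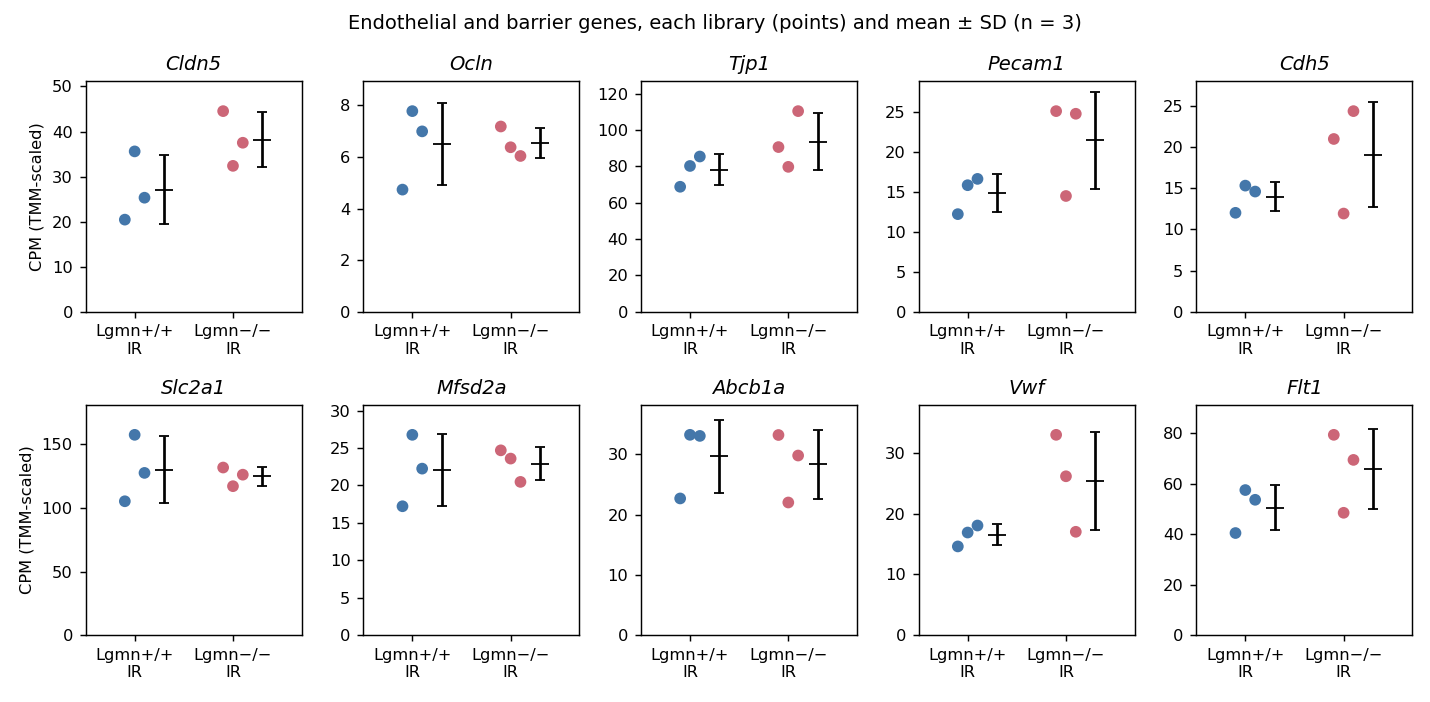
CPM (TMM-scaled, vertical axes starting at 0) of the 10 genes in the 3 Lgmn+/+-IR libraries (blue) and the 3 Lgmn−/−-IR libraries (red), with black bars for the mean ± SD (n = 3). In every panel the points of the genotypes overlap in range. The Lgmn−/−-IR points of Tjp1, Pecam1, Cdh5, Vwf and Flt1 are spread more widely than the Lgmn+/+-IR points.

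The stretch just before the transcription start is shown for 3 of the genes, as examples of 3 roles: a tight junction gene, a VEGF receptor and a lipid transporter. Each line holds the 250 bases upstream of the RefSeq start (GRCm38.p6), 5′ to 3′ on the strand of the gene. Capitals mark 4 short motifs read on both strands: AGGAAG and CGGAAG, ETS-type sites that differ only in their first letter, CTTTGA, a TCF/LEF-type site, and GGGCGG, a GC box.
Cldn5 (chr16:18776597-18776846, plus strand): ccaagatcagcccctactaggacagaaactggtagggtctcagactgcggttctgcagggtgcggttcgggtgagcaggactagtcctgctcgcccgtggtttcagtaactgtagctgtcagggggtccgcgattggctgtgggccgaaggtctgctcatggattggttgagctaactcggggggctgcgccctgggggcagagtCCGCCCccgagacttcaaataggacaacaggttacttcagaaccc
Flt1 (chr5:147726012-147726261, minus strand): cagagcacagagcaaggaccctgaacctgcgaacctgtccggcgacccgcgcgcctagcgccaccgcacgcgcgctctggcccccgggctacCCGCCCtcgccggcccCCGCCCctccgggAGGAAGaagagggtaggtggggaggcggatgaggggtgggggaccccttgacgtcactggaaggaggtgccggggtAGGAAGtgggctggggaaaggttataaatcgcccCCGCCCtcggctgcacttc
Mfsd2a (chr4:122961189-122961438, minus strand): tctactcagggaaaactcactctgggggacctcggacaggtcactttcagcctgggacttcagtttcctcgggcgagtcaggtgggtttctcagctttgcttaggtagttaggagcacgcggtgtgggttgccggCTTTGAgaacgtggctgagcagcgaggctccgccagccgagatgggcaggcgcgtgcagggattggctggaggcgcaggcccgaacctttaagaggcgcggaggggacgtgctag

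The *Flt1* window held 2 matches to AGGAAG and 3 to GGGCGG, the *Cldn5* window 1 match to GGGCGG, and the *Mfsd2a* window 1 match to CTTTGA. Of all 32851 mouse promoter windows of this length, 29.5% held AGGAAG, 13.6% CGGAAG, 13.8% CTTTGA and 32.7% GGGCGG. ETS factors such as ERG are known to drive endothelial genes, and TCF/LEF factors carry the Wnt signal, but a match is only a stretch of letters and not a shown binding site. Of the 10 genes, 7 had an entry in the promoter table, and *Pecam1*, *Cdh5* and *Vwf* had none. GC content of the shown windows was 59.6% for *Cldn5*, 70.4% for *Flt1* and 61.6% for *Mfsd2a*.

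The tight junction strand between brain endothelial cells is built by claudin-5, the product of *Cldn5* (chromosome 16, 18776847 to 18778262, plus strand, GRCm38). *Cldn5* was measured at 20.4, 35.6 and 25.3 CPM in the Lgmn+/+-IR libraries and at 44.5, 32.4 and 37.5 CPM in the Lgmn−/−-IR libraries. Lgmn+/+-IR library 2 lay above the lowest Lgmn−/−-IR library, so the groups overlapped. The means were 27.1 ± 7.74 and 38.1 ± 6.10 CPM (SD, n = 3 each), and the log2 fold change was 0.49 with a 95% interval of -0.02 to 1.00 (SE 0.22, adjusted p = 0.282, edgeR). A rise of *Cldn5* to 2-fold lay at the edge of this interval, and a fall of more than 0.02 on the log2 scale lay outside it. Without Lgmn+/+-IR library 2 the value was 0.74 (adjusted p = 0.165), and without Lgmn+/+-IR library 1 it was 0.33 (adjusted p = 0.450).

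*Ocln* encodes occludin, a regulator of the tight junction strand that is also found in other epithelial and glial cells (chromosome 13, 100496507 to 100552718, minus strand). It was the weakest of the 10 and gave 4.73, 7.78 and 6.99 CPM in Lgmn+/+-IR and 7.18, 6.38 and 6.04 CPM in Lgmn−/−-IR. All Lgmn−/−-IR values of *Ocln* fell inside the Lgmn+/+-IR range, and the log2 fold change was 0.01 (95% interval -0.47 to 0.48, adjusted p = 0.991, edgeR). *Tjp1* encodes ZO-1, the scaffold under the strand, which most cell types with junctions express (chromosome 7, 65296165 to 65527781, minus strand). *Tjp1* gave 68.8, 80.2 and 85.4 CPM in Lgmn+/+-IR and 90.6, 79.7 and 110.4 CPM in Lgmn−/−-IR. The lowest Lgmn−/−-IR library lay below 2 of the Lgmn+/+-IR libraries, and the log2 fold change was 0.26 (95% interval -0.08 to 0.60, adjusted p = 0.386, edgeR). Without Lgmn−/−-IR library 3 the value of *Tjp1* was 0.13, and with limma on log2(FPKM + 1) it was 0.15.

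*Cdh5* and *Pecam1* encode the adhesion proteins that hold endothelial cells to each other, VE-cadherin and PECAM-1, in vessels of every organ. *Pecam1* (chromosome 11, 106654217 to 106750628, minus strand) gave 12.2, 15.8 and 16.6 CPM in Lgmn+/+-IR and 25.1, 14.5 and 24.8 CPM in Lgmn−/−-IR. *Cdh5* (chromosome 8, 104101625 to 104144511, plus strand) gave 12, 15.3 and 14.6 CPM in Lgmn+/+-IR and 21.0, 11.9 and 24.3 CPM in Lgmn−/−-IR. For both genes Lgmn−/−-IR libraries 1 and 3 lay above every Lgmn+/+-IR library, while Lgmn−/−-IR library 2 lay inside the Lgmn+/+-IR range for *Pecam1* and below it for *Cdh5*. The log2 fold change was 0.53 for *Pecam1* (95% interval -0.02 to 1.07, adjusted p = 0.283, edgeR) and 0.45 for *Cdh5* (95% interval -0.15 to 1.05, adjusted p = 0.399). Leaving out 1 library moved *Pecam1* to between 0.40 (without Lgmn−/−-IR library 1) and 0.75 (without library 2), with an adjusted p of 0.0708 to 0.569. It moved *Cdh5* to between 0.24 (without Lgmn−/−-IR library 3) and 0.70 (without library 2), with an adjusted p of 0.0740 to 0.762.

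Transport across the barrier was covered by 3 genes, and with *Ocln* their fold changes were the nearest to 0 of the 10. *Slc2a1*, which encodes the glucose transporter GLUT1 of endothelium and, in another form, of glia (chromosome 4, 119108711 to 119137983, plus strand), gave 105, 157 and 127 CPM in Lgmn+/+-IR and 131, 117 and 126 CPM in Lgmn−/−-IR. All Lgmn−/−-IR values of *Slc2a1* lay within the Lgmn+/+-IR range, with a log2 fold change of -0.06 (95% interval -0.41 to 0.29, adjusted p = 0.866, edgeR). *Mfsd2a*, a carrier of lysophosphatidylcholine with docosahexaenoic acid that also holds down vesicle transport (chromosome 4, 122946850 to 122961188, minus strand), gave 17.2, 26.8 and 22.3 CPM in Lgmn+/+-IR and 24.7, 23.6 and 20.5 CPM in Lgmn−/−-IR. *Mfsd2a* in Lgmn−/−-IR again stayed inside the Lgmn+/+-IR range, and the log2 fold change was 0.05 (95% interval -0.35 to 0.46, adjusted p = 0.891, edgeR). *Abcb1a* encodes P-glycoprotein, the main efflux pump of the mouse barrier (chromosome 5, 8660077 to 8748575, plus strand). *Abcb1a* gave 22.7, 33.2 and 33.1 CPM in Lgmn+/+-IR and 33.2, 22.0 and 29.8 CPM in Lgmn−/−-IR. Each genotype had 1 low library, and the log2 fold change was -0.07 (95% interval -0.54 to 0.41, adjusted p = 0.889, edgeR). For these 3 genes, as for *Ocln*, *Tjp1* and *Flt1*, the interval excluded a 2-fold difference in either direction.

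*Vwf* encodes von Willebrand factor, the platelet-binding protein that endothelial cells store and release, at higher levels in veins (chromosome 6, 125546774 to 125686679, plus strand). *Vwf* gave 14.6, 16.9 and 18.0 CPM in Lgmn+/+-IR and 32.9, 26.1 and 17.0 CPM in Lgmn−/−-IR. Lgmn−/−-IR libraries 1 and 2 lay above all Lgmn+/+-IR libraries and library 3 lay among them. The means were 16.5 ± 1.75 and 25.3 ± 7.98 CPM (SD, n = 3 each), and the log2 fold change of 0.62 had an interval above 0 before adjustment (95% interval 0.07 to 1.16, SE 0.23, adjusted p = 0.220, edgeR). Without Lgmn−/−-IR library 1 the log2 fold change of *Vwf* was 0.39 (adjusted p = 0.416, edgeR), and without library 3 it was 0.84 (adjusted p = 0.0668). With limma on log2(FPKM + 1) it was 0.23 (adjusted p = 0.642), and by FPKM Lgmn−/−-IR library 3, at 1.77, lay below every Lgmn+/+-IR library (2.42, 2.04 and 2.63 FPKM). The blood markers were also lowest of the Lgmn−/−-IR libraries in that library (summed 234 CPM against 2273 and 1728 CPM). Their part in the *Vwf* values was not tested.

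*Flt1* encodes VEGF receptor 1, which binds VEGF-A tightly and in its soluble form withholds it from the signalling receptor (chromosome 5, 147561604 to 147726011, minus strand). *Flt1* gave 40.5, 57.5 and 53.7 CPM in Lgmn+/+-IR and 79.4, 48.5 and 69.4 CPM in Lgmn−/−-IR. As for *Pecam1*, Lgmn−/−-IR libraries 1 and 3 lay above every Lgmn+/+-IR library and library 2 lay inside their range. The log2 fold change of *Flt1* was 0.38 (95% interval -0.11 to 0.87, adjusted p = 0.379, edgeR). Without Lgmn+/+-IR library 1 or Lgmn−/−-IR library 1 it fell to 0.25 and 0.22.

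**Figure D2:**
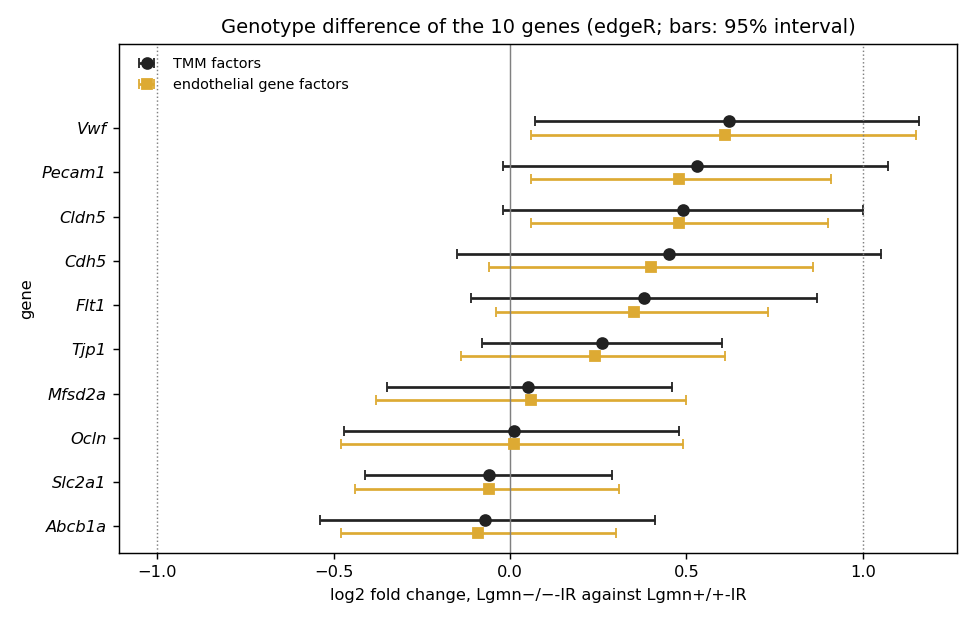
Log2 fold change of each of the 10 genes, Lgmn−/−-IR against Lgmn+/+-IR, from edgeR with TMM factors (black circles) and with factors taken from 21 other endothelial genes (yellow squares). Bars are 95% intervals without adjustment for the number of genes, and dotted lines mark a log2 fold change of 1 in each direction. Only the interval of Vwf lies above 0 with TMM factors, while those of Vwf, Pecam1 and Cldn5 do with the other factors, and the lowest adjusted p there is 0.354.

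To compare levels between genes, FPKM is used, since it is given per length. *Slc2a1* had the highest level, with a mean of 36.0 FPKM over the 6 libraries (range 30.1 to 46.4), and its range did not reach that of *Cldn5*, the next gene (mean 20.2, range 12.9 to 27.5 FPKM). Below these, the mean levels were 14.0 FPKM for *Tjp1*, 10.2 for *Mfsd2a*, 7.74 for *Flt1*, 5.45 for *Abcb1a*, 4.97 for *Pecam1*, 3.67 for *Cdh5*, 2.72 for *Vwf* and 1.94 for *Ocln*. From *Cldn5* downwards each gene overlapped its neighbour in range, so only the first place of *Slc2a1* was set apart from its neighbour. *Slc2a1* and *Tjp1* are also expressed by cells outside the vessels, so their levels are not those of endothelium alone.

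The 10 genes varied together between the libraries of a genotype, by about as much as between the genotypes. This was seen after the values were known and is given without a test. Lgmn+/+-IR library 1 was the lowest of the 3 Lgmn+/+-IR libraries for 10 of 10 genes, where it was the lowest for 38.0% of all genes tested. Lgmn−/−-IR library 2 was the lowest of its 3 libraries for 7 of 10 genes (36.6% of all genes tested), and Lgmn−/−-IR library 1 the highest for 8 of 10 (31.4%). The mean log2 CPM of the 10 genes was 4.45, 4.94 and 4.83 in the Lgmn+/+-IR libraries, and the Lgmn−/−-IR libraries had 5.20, 4.77 and 5.03, so the lowest Lgmn−/−-IR library lay below the higher 2 Lgmn+/+-IR libraries. These means differed by 0.26 between the genotypes, beside SDs of 0.26 (Lgmn+/+-IR) and 0.22 (Lgmn−/−-IR, n = 3 each). *Vwf* was the exception, with its lowest Lgmn−/−-IR value in library 3, as were *Mfsd2a* and *Ocln*.

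The same libraries stood low in other genes of the vessel wall. Of 21 other endothelial genes (among them *Emcn*, *Tie1*, *Tek* and *Kdr*), 15 were lowest in Lgmn+/+-IR library 1 and 16 in Lgmn−/−-IR library 2. Of 18 genes in the list for mural cells, the pericytes and smooth muscle cells around the endothelium, 14 and 15 were lowest in those libraries. That list also holds *Pdgfb*, a growth factor gene of endothelium. Astrocyte genes were lowest in the same libraries in 4 of 6 and 3 of 6 cases. Of 12 genes of cortical neurons, 2 were lowest in Lgmn+/+-IR library 1 and 5 in Lgmn−/−-IR library 2, while 10 were highest in Lgmn+/+-IR library 1 (38.8% of all genes tested) and 9 in Lgmn−/−-IR library 3 (34.1%). Whether the vessel content of the cortex samples differed was not tested.

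**Figure D3:**
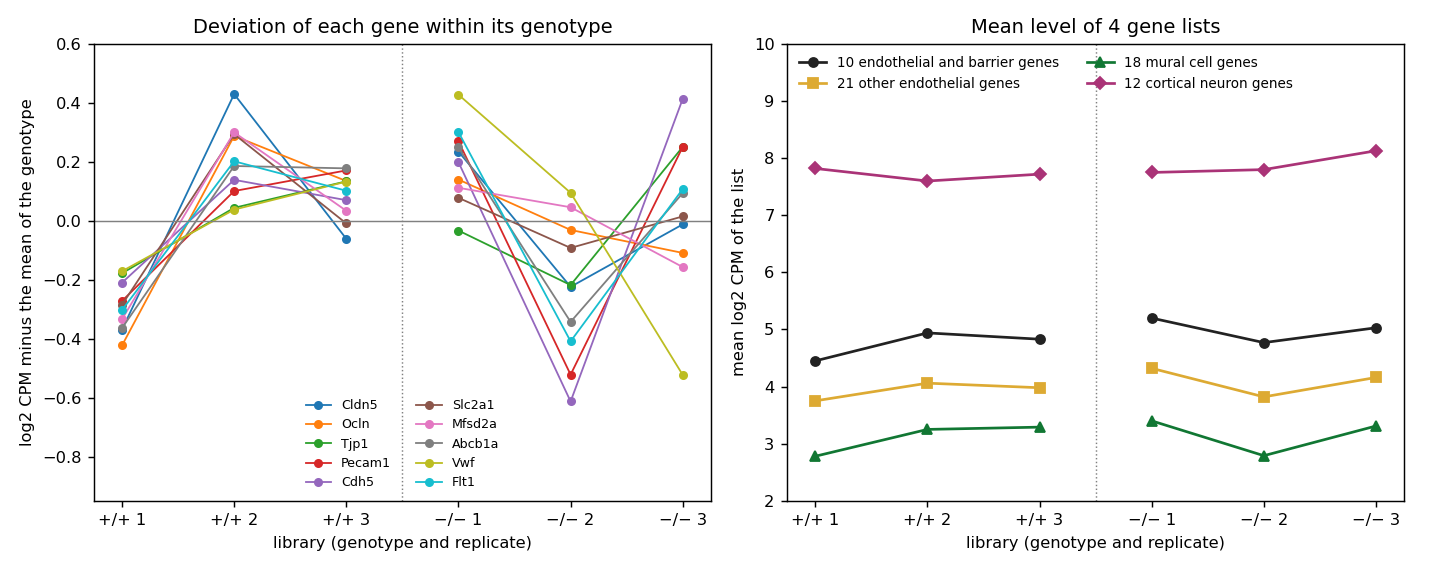
Left, log2 CPM of each of the 10 genes minus the mean of its genotype, by library (3 Lgmn+/+-IR, then 3 Lgmn−/−-IR), where lines only join the values of 1 gene and replicates have no order. Right, mean log2 CPM of 4 gene lists by library. The 10 genes, 21 other endothelial genes and 18 genes of the mural list are low in Lgmn+/+-IR library 1 and Lgmn−/−-IR library 2. The 12 cortical neuron genes do not follow that order.

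The values of the 10 genes were therefore also read relative to the 21 other endothelial genes, as a rough measure of the endothelial RNA of each library. When the mean log2 CPM of the 21 other endothelial genes was subtracted, the difference between the genotypes was 0.35 for *Cldn5*, 0.32 for *Pecam1*, 0.22 for *Cdh5*, 0.20 for *Flt1* and 0.40 for *Vwf* on the log2 scale. It was -0.14 for *Ocln*, 0.08 for *Tjp1*, -0.21 for *Slc2a1*, -0.10 for *Mfsd2a* and -0.23 for *Abcb1a*. On this relative scale *Abcb1a* was the 1 gene whose libraries did not overlap, at 0.76, 0.99 and 1.07 for Lgmn+/+-IR against 0.73, 0.64 and 0.74 for Lgmn−/−-IR. The nearest libraries, at 0.76 and 0.74, lay close together. The 21 genes include *Ly6a* (log2 fold change 1.99, edgeR), and their mean was itself 0.17 higher in Lgmn−/−-IR. The separation depends on that reference, so no difference in *Abcb1a* is read from it. The share of all genes that did not overlap on this scale is not given here. With library factors from the summed counts of those 21 genes in edgeR, 0 of 10 reached an adjusted p under 0.05 and the log2 fold change of *Abcb1a* was -0.09 (95% interval -0.48 to 0.30, adjusted p = 0.928). The summed counts follow the most abundant of the 21 genes, whereas the mean of logs weights them equally. *Cd34*, the most abundant, gave 86.1, 62.3 and 49.4 CPM in Lgmn+/+-IR and 53.7, 71.1 and 75.2 CPM in Lgmn−/−-IR. It was thus highest in Lgmn+/+-IR library 1, where 15 of the 21 were lowest, so the summed counts are not a clean measure of endothelial RNA. At an unadjusted p under 0.05, that fit gave 3 of 10, and the share of all genes in that fit is not given here.

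The 5 genes outside the vessel lists whose log2 CPM followed the mean of the 10 genes most closely over the 6 libraries, of 11634 genes with a mean of at least 5 CPM, were *Slc39a14* (Pearson r = 0.996), *Timp3* (0.989), *Gpc4* (0.989), *Hadha* (0.982) and *Cyp2j9* (0.982). These are given as a description, since they were picked as the highest of many over 6 libraries that share their preparation. *Timp3*, an inhibitor of matrix metalloproteinases, gave 74.2, 102.9 and 95.5 CPM in Lgmn+/+-IR and 113, 90.8 and 108 CPM in Lgmn−/−-IR, and no neighbour had an adjusted p under 0.05.

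The genes around the 10 were read in lists by role. Of 18 junction genes, 0 reached an adjusted p under 0.05 and the median log2 fold change was 0.05. Besides the 10, *Lsr*, which encodes angulin-1 of the corners where 3 cells meet, showed a log2 fold change of 0.52, at an adjusted p of 0.201, and the adhesion molecule gene *Jam2* had 0.39 (adjusted p = 0.202, edgeR). Without the 5 junction genes already described, the median of the other 13 was -0.04. Of these 18 genes, 2 had an unadjusted p under 0.05 (18.6% of all genes tested did).

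Of 23 genes of transport across the barrier, 0 reached an adjusted p under 0.05 and the median was -0.07. *Slco1a4*, an organic anion transporter of brain endothelium, gave 41.1, 54.7 and 53.1 CPM in Lgmn+/+-IR and 33.4, 21.2 and 27.4 CPM in Lgmn−/−-IR. The groups of *Slco1a4* did not overlap and the log2 fold change was -0.86 (SE 0.19, adjusted p = 0.0613, edgeR), but with DESeq2 the adjusted p was 0.00139. *Cav1*, which encodes the coat protein of caveolae, the vesicles that brain endothelium keeps few of, had -1.07 (SE 0.42, adjusted p = 0.242). Of the 23, 4 had an unadjusted p under 0.05, which is near the 18.6% of all genes tested.

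Of 22 tested genes of the VEGF, angiopoietin and Notch pathways, 0 reached an adjusted p under 0.05 and the median was 0.00. The lymphatic growth factor gene *Vegfc* stood at a log2 fold change of -0.72 (adjusted p = 0.0987, edgeR), and *Nrp1*, a co-receptor of VEGF, had 0.56 (adjusted p = 0.200). Of these 22, 6 had an unadjusted p under 0.05 (18.6% of all genes tested did). Of 24 genes of the Wnt signal and other factors that keep the barrier, 0 reached an adjusted p under 0.05 and the median was 0.03. The Wnt target and inhibitor *Apcdd1* had -0.60 (adjusted p = 0.0664, edgeR), with 50.9, 51.2 and 51.4 CPM in Lgmn+/+-IR and 34.0, 27.8 and 39.6 CPM in Lgmn−/−-IR, and *Nkd1*, another Wnt inhibitor, had -0.31 (adjusted p = 0.279). With DESeq2 the adjusted p of *Apcdd1* was 0.00844. The 2 tools thus differ on the *Apcdd1* call. Of these 24, 2 had an unadjusted p under 0.05 in edgeR (18.6% of all genes tested did), *Apcdd1* and *Lef1*. *Lef1* had the largest fold change of the list, in the other direction, at 0.81 (adjusted p = 0.188, edgeR), and its libraries overlapped. A positive fold change was found for 13 of the 24 and a negative one for 11, so no direction of the Wnt signal is read from them.

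*Ly6a* was the 1 gene of endothelial identity with an adjusted p under 0.05 (edgeR), and it was higher in Lgmn−/−-IR. It encodes Sca-1, a surface protein of endothelial cells in the mouse brain that interferon also induces in many cell types. *Ly6a* gave 3.52, 4.25 and 3.41 CPM in Lgmn+/+-IR and 17.7, 13.7 and 13.0 CPM in Lgmn−/−-IR. The groups stood far apart, and the log2 fold change was 1.99 (SE 0.17, adjusted p = 0.00175, edgeR), with an adjusted p of at most 0.0212 in all 17 alternative analyses. The cause of the *Ly6a* difference was not tested, and the strain of the stem cells is not given in the sources used here. Of the 26 genes of this list, 1 reached an adjusted p under 0.05 (edgeR) and the median was 0.17. A positive fold change was found for 19 of the 26 and a negative one for 7. *Cldn5*, *Pecam1*, *Cdh5*, *Flt1* and *Vwf* stand in the same list with log2 fold changes of at most 0.62.

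Of 22 tested genes of endothelial activation, such as adhesion molecules for leukocytes and genes of clotting, 1 reached an adjusted p under 0.05 and the median was 0.34. This was *Cd74*, the invariant chain of class II antigen presentation, which myeloid cells express more than endothelium, with 1.36, 1.05 and 0.968 CPM in Lgmn+/+-IR and 4.50, 2.24 and 3.28 CPM in Lgmn−/−-IR. The log2 fold change of *Cd74* was 1.57 (SE 0.30, adjusted p = 0.0401, edgeR), and the call was lost without any 1 of the Lgmn+/+-IR libraries or Lgmn−/−-IR library 1 or 3, with an adjusted p of up to 0.160. Of the 22 genes, 10 had an unadjusted p under 0.05, beside 18.6% of all genes tested, and 8 of the 10, *Vwf* among them, had a positive fold change. Bulk RNA does not show which cells the reads of these genes came from, so no activated state of endothelium is read from these counts. No microglia marker of 7 reached an adjusted p under 0.05.

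**Figure D4:**
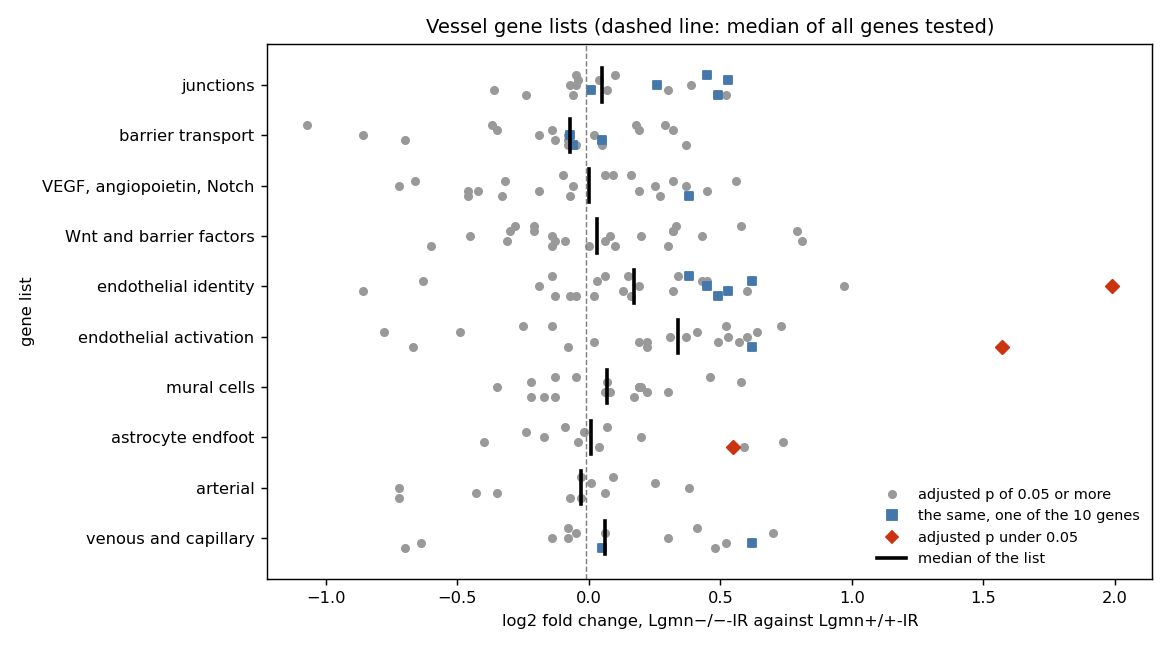
Log2 fold change, Lgmn−/−-IR against Lgmn+/+-IR, of every tested gene in 10 vessel gene lists. Points are single genes (blue squares are among the 10 genes, red diamonds have an adjusted p under 0.05), thick lines are list medians and the dashed line is the median of all genes tested, -0.01. The red diamonds are Ly6a (1.99), Cd74 (1.57) and Aqp4 (0.55).

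Around the endothelium, 0 of 18 genes of the mural list, which includes *Pdgfb*, reached an adjusted p under 0.05 and the median was 0.07. *Pdgfb*, the endothelial growth factor gene that recruits pericytes, stood at 0.30 on the log2 scale (adjusted p = 0.221, edgeR). Of 12 genes of the astrocyte endfoot, 6 had a positive fold change and 6 a negative one, and 1 reached an adjusted p under 0.05, below the 2-fold limit. *Aqp4*, which encodes the water channel of the endfoot, gave 65.9, 73.4 and 70.4 CPM in Lgmn+/+-IR and 100.3, 93.2 and 114 CPM in Lgmn−/−-IR. The groups of *Aqp4* did not overlap, and the log2 fold change was 0.55 (SE 0.10, adjusted p = 0.0374, edgeR). The call was lost without any 1 of the Lgmn+/+-IR libraries or Lgmn−/−-IR library 1 or 3, with an adjusted p of up to 0.129.

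Neither arterial nor venous and capillary genes reached an adjusted p under 0.05 (0 of 12 and 0 of 14 tested). The most abundant were *Stmn2* of the arterial list and *Spock2* of the other. Their means were 347 and 943 CPM in Lgmn+/+-IR and 412 and 983 CPM in Lgmn−/−-IR. Bulk RNA does not show which cells such reads came from, so the list names do not place them in vessels. Among the arterial genes, *Mgp*, an inhibitor of calcification, stood at -0.43 on the log2 scale (adjusted p = 0.0741, edgeR). In the venous and capillary list, *Tfrc*, the transferrin receptor gene, gave 94.2, 80.0 and 85.9 CPM in Lgmn+/+-IR and 65.2, 50.5 and 44.2 CPM in Lgmn−/−-IR. The groups of *Tfrc* did not overlap, with a log2 fold change of -0.70 (adjusted p = 0.0614, edgeR), and the adjusted p was 0.00290 with DESeq2 and 0.0279 without Lgmn−/−-IR library 1. *Rgcc*, a regulator of the cell cycle, had -0.64 (adjusted p = 0.107, edgeR), with an adjusted p of 0.0366 without Lgmn−/−-IR library 2.

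Other cells of the cortex and its coverings were followed by marker lists, of which single genes are given for neurons, astrocytes, choroid plexus, meninges and mural cells. The log2 fold change was 0.22 for *Snap25* of neurons, -0.06 for *Slc1a2* of astrocytes, 0.00 for *Ttr* of the choroid plexus, 0.05 for *Ptgds* of the meninges and -0.35 for *Rgs5* of mural cells. None of these 5 had an adjusted p under 0.05 (edgeR). Over the whole lists, 0 of 12 neuron genes, 1 of 6 astrocyte genes (*Aqp4*), 0 of 8 choroid plexus genes and 1 of 8 meninges genes (*Slc6a13*, named after its values were seen) did, and *Slc6a13* lost the call in each of the 6 fits without 1 library (adjusted p of 0.0547 to 0.140). The endothelial markers were present in all 6 libraries, with 26 of 26 tested.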

How the data were processed

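Reads had been trimmed by the authors with Trimmomatic 0.36 and mapped with HISAT2. The deposited table held the raw read counts of 51826 genes in 6 libraries, and a second deposited table held FPKM, computed by the authors with StringTie. The labels name GRCm38, and the counting program and its use of strand are not given in the sources used here. Of the gene IDs, 51633 were found in GENCODE M21, which gave positions.

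Counts were tested with edgeR 4.0.16 in R 4.3.3 (TMM, filterByExpr by genotype, quasi-likelihood test with no covariate besides genotype, p adjusted by Benjamini-Hochberg over 18345 genes). DESeq2 1.42.0, limma 3.58.1 (voom, and log2(FPKM + 1, 0.1 or 0.01)), other factors and filters, a replicate block and leaving out each library were the 17 alternatives. Intervals are 95% and cover the spread between these 6 libraries. Log2 CPM used a prior count of 2. The fit was tested on simulated counts. Total counts of 41874462 to 46829441 set the counting error, which does not cover the spread between mice. No library duplicated another (chi-square of 29.0 to 104 a gene between libraries of a genotype).

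The 10 genes and all lists were chosen with earlier results of these data known. The genes named were the 10, Lgmn, each list gene with an adjusted p under 0.05 or else the 2 with the largest fold change among those not overlapping, blood markers, the most abundant marker of each cell type and the 5 closest in pattern. Some genes that this rule names are not reported here. Promoter sequences came from RefSeq (GRCm38.p6), upstream bases only.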

Additional observations from a re-analysis of the deposited data

How the results depend on the processing

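The counts of 0 of 10 genes called and 0 of 10 with an adjusted p under 0.05 held in all 17 alternatives. Of 170 values of the 10 genes over the alternatives, 157 kept their direction and none passed the threshold. The 13 that turned were near 0. Without 1 library the values ranged from -0.17 to 0.15 for Ocln, -0.18 to 0.10 for Slc2a1, -0.09 to 0.21 for Mfsd2a, -0.22 to 0.09 for Abcb1a, -0.11 to 0.01 for Slc1a2, -0.32 to 0.22 for Ttr and -0.03 to 0.10 for Ptgds. With upper-quartile factors Ocln was at -0.01 and Ttr at -0.02, with FPKM + 1 Ocln was at -0.0017, and with the FPKM pseudocounts 1, 0.1 and 0.01 Abcb1a was at 0.0093, 0.0091 and 0.0090. The cause was not tested.

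Counts with an adjusted p under 0.05 moved in the lists, and some genes, such as Tfrc and Slco1a4, stand in more than 1 list. The share of all genes with an adjusted p under 0.05 in the alternative fits is not given here, so these counts have no background beside them. DESeq2 gave 2 transport, 1 Wnt, 3 identity, 5 activation, 2 endfoot, 1 arterial and 4 venous and capillary genes. Endothelial gene factors gave 1 transport, 2 identity and 0 endfoot genes. FPKM with each pseudocount gave 1 transport, 1 Wnt and 2 identity genes. Activation and endfoot genes fell to 0 without the low-count filter, and activation to 0 with limma-voom. Without 1 library the range was 0 to 1 for transport, activation and endfoot, 1 to 2 for identity and 0 to 2 for venous and capillary genes. Over all genes, 377 were called by edgeR, 593 by DESeq2, 228 with at least 10 counts in every library, 175 with FPKM + 1, and 200 to 326 without 1 library. Called genes also had a log2 fold change beyond 1 in either direction, so these numbers are not the background of the list counts.

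The replicate numbers are shared by the genotypes, but the labels state no pairing of the samples. Deviations of same-numbered libraries correlated at -0.252, -0.046 and -0.028, and 0 of 6 libraries correlated best with its own number. No pairing was evident, but deviations from the mean of 3 libraries sum to 0, so this check cannot exclude one. With the replicate block, 139 genes were called over all genes, 0 of 10 of the endothelial and barrier genes, and 0 activation and 0 endfoot genes had an adjusted p under 0.05. The block also left 0 of 5 blood, 2 of 6 oligodendrocyte, 0 of 8 meninges and 0 of 6 astrocyte markers with an adjusted p under 0.05, and took that of Lgmn to 0.113. Without it, the counts were 5, 5, 1 and 1. The median log2 fold change of the 10 was 0.31 with the block.

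With 3 libraries a genotype, the intervals of Cldn5, Pecam1, Cdh5, Vwf and Flt1 leave room for a rise of up to 1.16 on the log2 scale (Vwf).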
